A study of Saccharomyces cerevisiae with 13 samples.

Results

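Budding yeast cells replicate their DNA, duplicate and separate their spindle poles and assemble a short spindle between the start of S phase and the onset of mitosis. The arrays taken at 30, 40, 90 and 100 min after release from a G1 block, which fall in that stretch of the first and of the second cell cycle, are described here against the other arrays of the same course. They were assigned by their labelled times and are 4 of the 13 arrays. The 8 arrays set against them were taken at 10, 20, 50, 60, 70, 80, 110 and 120 min, and the 0 min array was left out.

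The cells were Saccharomyces cerevisiae W303 in an SSD1-V background, in which the RNA-binding protein Ssd1 is functional. They were grown in YEPD, a rich glucose medium, arrested with alpha factor, the mating pheromone that holds MATa haploids in G1, and released into YEPD. All arrays described here share that strain, arrest and release, and differ in time alone. Each sample, labelled with Cy5, was hybridised with Cy3-labelled cDNA of an untreated asynchronous W303a culture, so every level below is a ratio to that mixed population, on the log2 scale. The log base is not stated by the files or labels and was taken as 2. Whether the asynchronous culture carried SSD1-V is not stated either.

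Transcription in this stretch follows from switches that come before and after it. The MBF and SBF factors turn on DNA replication and budding genes in late G1, histone genes are transcribed as DNA is copied, and the forkhead factor Hcm1 drives genes of the spindle and the kinetochore in S phase. Genes of the MCM helicase, of pheromone response and of cell separation are turned on by other factors at the end of mitosis and in early G1.

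Each gene was described by its window minus rest difference: the mean of the 4 window arrays less the mean of the 8 others, with the cycle as a covariate. Of 6135 genes tested, 0 (0%) passed an adjusted p under 0.05 in limma with the same sign in both cycles, and 1113 (18.1%) had an unadjusted p under 0.05. The smallest adjusted p was 0.098, and 5 genes had an adjusted p under 0.1. Among these MCM2, PHO12, PRY1 and SED1 were lower in the window and YER121W was higher. Every difference below is therefore a description of levels on these arrays that did not pass the test across all genes. There is 1 array per time and 1 culture, so a p-value measures the spread of time points around a pair of levels and not the variation between cultures. The SE after ± has the same meaning.

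A pair of weaker descriptors was counted beside that test. The first asks for an unadjusted p under 0.05 and the same sign in both cycles, which 624 genes met with higher window values (10.2%) and 485 with lower values (7.91%). The second asks that the window arrays do not overlap the rest, all 4 lying above or all 4 below the other 8, which held for 78 genes that were higher (1.27%) and 45 that were lower (0.733%). The median difference over all genes was 0, with quartiles at -0.08 and 0.08, and 3802 genes (62%) had the same sign in both cycles. Of the 6135 genes, 1927 were higher in both cycles and 1875 were lower in both. Counts of list members positive or negative in both cycles are to be read against these. With neighbouring arrays as a random block in limma, whose estimated correlation was 0.33, the smallest adjusted p was 0.45. The first descriptor then held for 381 higher and 256 lower genes of 6135. Counts with the block below are to be read against these numbers, and not against 10.2% and 7.91%. Differences of at least 0.5 were seen in 41 genes and of -0.5 or less in 89.

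All 7 MATa-specific genes were measured against the W303a reference, and they varied over the course as described below. The markers of alpha cells, diploids and meiosis, 13 genes in all, lay near the reference, with array medians of -0.07 to 0.10 in the window and -0.11 to 0.01 on the other arrays. Levels against a mixed culture cannot say whether such a gene is silent. Between 6131 and 6139 genes were measured per array, and the spread of log ratios over genes was 0.24 to 0.341 (SD) on the window arrays and 0.244 to 0.364 on the others. After centring each gene, the window arrays correlated with one another at r = 0.5 for 30 and 40 min, 0.318 for 90 and 100 min, 0.075 for 30 and 90 min, 0.124 for 30 and 100 min, -0.148 for 40 and 90 min and 0.359 for 40 and 100 min. With the array of the rest just before the window, r was 0.398 for 20 and 30 min and 0.394 for 80 and 90 min. With the array just after it, r was 0.534 for 40 and 50 min and 0.435 for 100 and 110 min. The 40, 90 and 100 min arrays thus correlated more with a neighbour outside the window than with the other window array of their cycle. These correlations are across genes, which are not independent replicates. Fewer cells in S or G2 and less of a transcript per cell cannot be told apart in samples of a whole culture.

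The core histone genes had the largest positive differences of all genes. They encode the proteins around which new DNA is wrapped, and all 8 (2 copies each of H2A, H2B, H3 and H4) were higher in the window in both cycles, by 0.98 to 1.33. Their median difference was 1.16, against 0 over all genes, and was 0.89 in the second cycle and 1.41 in the first. The only 7 genes of the whole table with a difference of 1 or more were core histones. All 8 met the unadjusted threshold with higher values, against a background of 10.2% of genes, and 7 did so with neighbouring arrays as a block. None had a window clear of the rest, and the smallest adjusted p among them was 0.14 (limma).

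HTA2, which encodes H2A, stood at 1.07, 0.12, 0.58 and 0.22 at 30, 40, 90 and 100 min, against a lowest of -1.78, a median of -1.03 and a highest of 0.39 on the other arrays. The groups overlapped because the arrays just before the window were already high, at 0.39 at 20 min and 0.25 at 80 min. The difference was 1.33 ± 0.41 (adjusted p = 0.14, limma), a 2.52-fold ratio of geometric means. HTA1, the other H2A gene, read 0.57, -0.23, 0.35 and -0.02 in the window and between -2.31 and 0.08 with a median of -1.38 on the rest. Its difference was likewise 1.33 ± 0.41, and in both genes the 40 and 100 min arrays were lower than the 30 and 90 min arrays. The H3 gene HHT2 had the smallest difference of the 8, 0.98 ± 0.35, from window values of 0.70, -0.21, 0.58 and 0.12 and a rest median of -0.94. As a list, the core histones had array medians of 0.96, -0.15, 0.51 and 0.11 in the window and of -1.61 to 0.41 on the rest. Copies of a histone gene are nearly identical, so their signals may be shared.

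**Figure D1:**
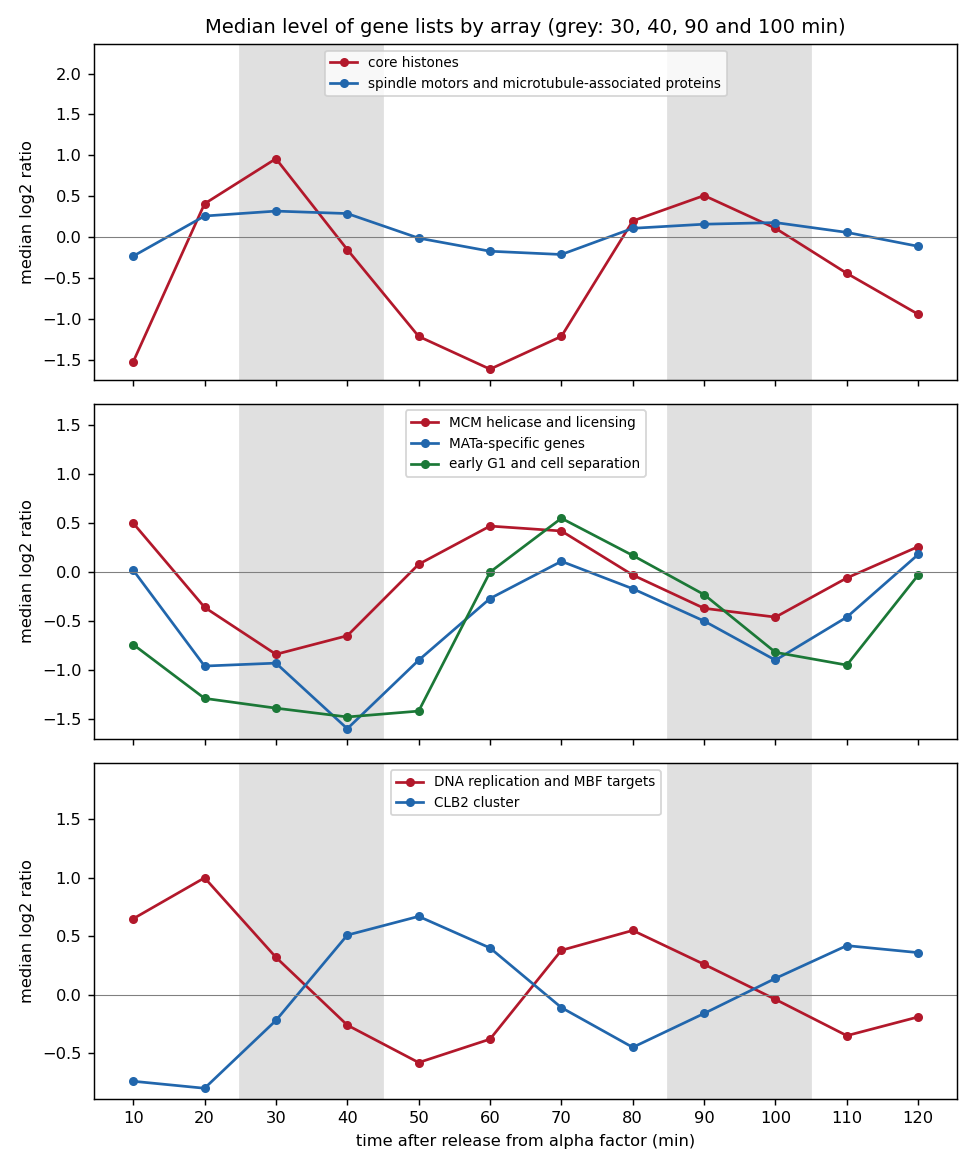
Median log2 ratio to the asynchronous reference (vertical axis) of 7 gene lists on each array from 10 to 120 min (horizontal axis), with the window times shaded. Core histones stood at 0.96 at 30 min and 0.51 at 90 min and were already at 0.41 at 20 min, the MCM and MATa-specific lists were lowest within the shading in both cycles, and the replication and CLB2 lists had a higher and a lower array within each shaded stretch.

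Of the 20 other histone and chaperone genes, 4 met the unadjusted threshold with higher and 1 with lower values (10.2% and 7.91% over all genes). Their median difference was -0.04. With neighbouring arrays as a block the counts were 3 and 0. HHO1, the linker histone H1, had the largest difference, 0.62 ± 0.22 (adjusted p = 0.18, limma), and HTZ1, the H2A.Z variant, had 0.53 ± 0.16. The centromeric H3 gene CSE4 was higher by 0.29 ± 0.13. SCM3, the chaperone that loads Cse4 at centromeres, was the only member with a window clear of the rest (1.27% of all genes, higher). It read 0.39, 0.39, 0.36 and 0.25 against 0 to 0.21. The chaperone and regulator genes held both signs. RLF2, the large subunit of the assembly factor CAF-1, differed by -0.42 ± 0.19 and was the member that met the threshold with lower values. SPT21, an activator of histone genes, had -0.48 ± 0.35, and the histone gene regulators HIR3 and HIR1 had 0.10 ± 0.09 and 0.07 ± 0.08, HIR1 with a lone array of 0.29 at 20 min, and none of these met it.

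Genes of the mitotic spindle were higher in the window in part. Of 18 spindle motors and microtubule-associated proteins, 7 met the unadjusted threshold with higher values and 0 with lower (10.2% and 7.91% over all genes). In 2 members the window lay clear above the rest (1.27% of all genes). The list's median difference was 0.19, with 14 members positive in both cycles (1927 of 6135 over all genes). STU2, a microtubule polymerase at kinetochores and spindle poles, stood at 0.64, 0.65, 0.23 and 0.35 in the window, against a lowest of -0.60, a median of -0.30 and a highest of 0.15 on the rest. All 4 window arrays lay above all others, and the difference was 0.73 ± 0.16 (adjusted p = 0.12, limma). VIK1, a partner subunit of the kinesin-14 Kar3, was the other gene with a clear window, at 0.67, 0.52, 0.42 and 0.48 against -0.05 to 0.31.

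Several kinesin genes were higher too, with some overlap. KAR3, the kinesin-14, read 0.68, 0.45, 0.58 and 0.46 in the window and -0.65 to 0.56 with a median of -0.17 on the rest, a difference of 0.65 ± 0.19. CIN8, a kinesin-5 that separates the poles, read 0.48, 0.27, 0.53 and 0.40, against -0.99 to 0.51 with a median of -0.23, a difference of 0.63 ± 0.22. In both genes the single overlapping array was at 20 min, which held the highest value of the rest. KIP1, the second kinesin-5, differed by 0.51 ± 0.13, CIK1, the other Kar3 partner, by 0.43 ± 0.14, and KIP3, a kinesin-8 that shortens microtubules, by 0.38 ± 0.13. The motor genes KIP2 and DYN1, at 0.21 ± 0.19 and 0.11 ± 0.10, did not meet the unadjusted threshold.

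Of 4 tubulin genes, 3 met the unadjusted threshold with higher values (10.2% over all genes), and 2 did with neighbouring arrays as a block. TUB1, the main alpha-tubulin, differed by 0.38 ± 0.14, TUB2, the beta-tubulin, by 0.26 ± 0.08 and TUB3, the minor alpha-tubulin, by 0.25 ± 0.11. TUB4, the gamma-tubulin of the spindle poles, differed by -0.12 ± 0.13 and did not meet it. TUB1 and TUB3 are close copies and may share signal. At the pole body, 3 of 16 members were higher at the unadjusted threshold and 1 lower, around a median of 0.01. Those shares are to be read against 10.2% and 7.91% of all genes, and with neighbouring arrays as a block the counts were 1 and 0. SPC98 and SPC97, partners of Tub4 in the complex that nucleates microtubules, differed by 0.65 ± 0.21 and 0.53 ± 0.21, and NUD1, a scaffold of the outer plaque, by 0.29 ± 0.13.

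Of 23 kinetochore genes, 6 met the unadjusted threshold with higher values and 0 with lower (10.2% and 7.91% over all genes), and 17 did not meet it. With neighbouring arrays as a block the higher count was 3. The list median was 0.08, which equals the upper quartile of all genes, and 15 members were positive in both cycles. NDC80, the microtubule-binding subunit, read 0.51, 0.48, 0.22 and 0.29 in the window and -0.29 to 0.19 with a median of 0.04 on the rest. Its window was clear of the rest and the difference was 0.37 ± 0.09 (adjusted p = 0.12, limma). OKP1, of the inner kinetochore, also had a clear window with 0.24 ± 0.08. Over all genes 1.27% had a clear window on the higher side. DSN1 of the Mis12 complex, at 0.39 ± 0.14, overlapped the rest. Of the other subunits of the Ndc80 complex, SPC25 and SPC24 differed by 0.27 ± 0.11 and 0.18 ± 0.07, and NUF2 by 0.06 ± 0.17. Each of them overlapped the rest. Only NUF2 did not meet the threshold, and with the block none of them met it.

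The Dam1 ring couples kinetochores to microtubule ends, and 7 of its 10 genes were measured. Of these, 4 met the unadjusted threshold with higher values (10.2% over all genes), around a median of 0.24. With neighbouring arrays as a block the higher count was 3. SPC34 differed by 0.39 ± 0.11, DAM1 by 0.30 ± 0.09, ASK1 by 0.30 ± 0.09 and DAD1 by 0.24 ± 0.10. SPC34 at 20 min stood at 0.47, far above the next of the rest at 0.07. Among 10 measured checkpoint and Aurora kinase genes, 9 were positive in both cycles, with a median of 0.21. The unadjusted threshold was met by 4 with higher values, against the same share of all genes, and by 3 with the block. SGO1, the shugoshin that senses tension at centromeres, read 0.89, 0.74, 0.70 and 0.60, against -0.35 to 0.76 with a median of 0.09, a difference of 0.62 ± 0.17. MPS1, a kinase of the checkpoint and of pole duplication, varied least, at 0.23, 0.22, 0.24 and 0.21 in the window against -0.37 to 0.16, and was clear of the rest. MAD3 differed by 0.27 ± 0.08 and the survivin homologue BIR1 by 0.16 ± 0.07.

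**Figure D2:**
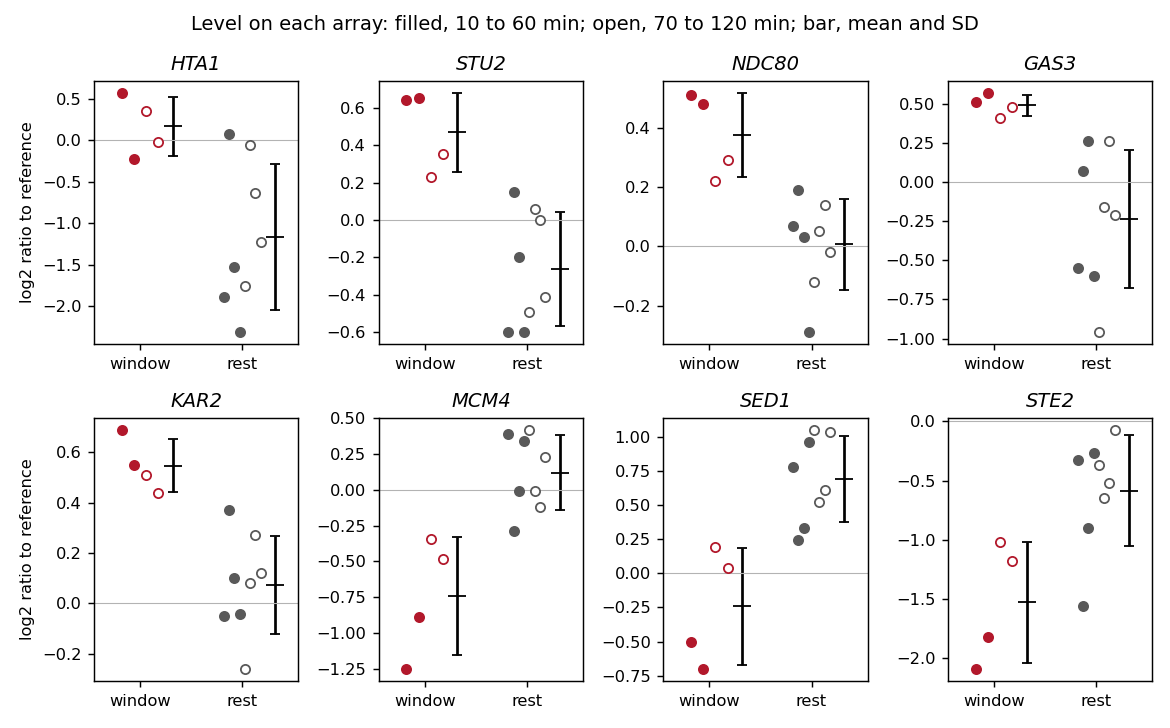
Log2 ratio to the reference (vertical axis) of 8 genes on the 4 window arrays (left in each panel) and the 8 other arrays (right), filled for 10 to 60 min and open for 70 to 120 min, with mean and SD over arrays as bars. STU2, NDC80, GAS3, KAR2, MCM4 and SED1 have window arrays clear of the others, while HTA1 and STE2 overlap them.

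Of 17 S and G2 regulators, 5 met the unadjusted threshold with higher values and 0 with lower (10.2% and 7.91% over all genes), and 12 did not meet it. The median was 0.20, and with neighbouring arrays as a block the higher count was 4. FKH1, a forkhead factor of the CLB2 cluster, read 0.61, 0.90, 0.51 and 0.57 in the window and -0.77 to 0.51 with a median of -0.03 on the rest, a difference of 0.72 ± 0.21 (adjusted p = 0.14, limma). The highest other array, at 50 min, equalled the lowest window array. YHP1, a repressor of early cell cycle boxes, differed by 0.71 ± 0.18, NDD1, the coactivator of Fkh2, by 0.52 ± 0.13, FKH2 by 0.38 ± 0.13 and CLB4, a cyclin of S phase and early mitosis, by 0.38 ± 0.15. Other factors of the list did not meet the threshold: HCM1 had 0.04 ± 0.18, the Yhp1 homologue YOX1 -0.23 ± 0.37 and WHI5, the repressor of SBF, 0.20 ± 0.12. The S phase cyclin gene CLB6 had the opposite sign, -0.67 ± 0.43, with window values of -0.27, -0.31, 0.13 and -0.03 below its rest median of 0.54, and did not meet the threshold.

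Of 14 cohesin and condensin genes, 1 met the unadjusted threshold with higher values (10.2% over all genes), YCG1 of condensin, at 0.45 ± 0.13. Of 5 septin genes, which form the ring at the bud neck, 3 met it with higher values and all 5 were positive in both cycles. With neighbouring arrays as a block the higher count of septins was 2. CDC11 differed by 0.35 ± 0.10, CDC3 by 0.21 ± 0.08 and CDC12 by 0.20 ± 0.07.

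The DNA replication and MBF list had its highest array medians just before the window in each cycle, at 20 and 80 min. For its 26 genes the median difference was -0.06. The unadjusted threshold was met by 1 with higher values (10.2% over all genes), and by 0 with neighbouring arrays as a block. It was RFA3 of the single-strand binding complex RPA, at 0.32 ± 0.15. RNR1, the large subunit of ribonucleotide reductase, read 0.24, -0.87, 0.34 and -0.28 in the window and -1.66 to 1.64 with a median of 0.12 on the rest, so that its difference was -0.21 ± 0.59. POL30, which encodes the sliding clamp PCNA, had a difference of -0.08 ± 0.49. The list's array medians in the window were 0.32 and -0.26 at 30 and 40 min and 0.26 and -0.04 at 90 and 100 min. Each cycle thus held a higher and a lower window array.

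The CLB2 cluster, genes of mitotic entry, had these window arrays in the opposite order. Its window medians were -0.22, 0.51, -0.16 and 0.14, and its list median difference was 0.10. At the unadjusted threshold 1 of 22 was higher and 2 were lower, against 10.2% and 7.91% of all genes. CLB2, the main mitotic cyclin, read -0.19, 0.80, -0.18 and 0.29 in the window, against -1.14 to 0.83 with a median of -0.14, a difference of 0.37 ± 0.38. BUD3, an axial bud site protein averaged over 2 rows, was higher by 0.48 ± 0.19. The mitotic exit genes DBF2, a kinase, and SPO12, which acts on Cdc14 release, differed by -0.70 ± 0.24 and -0.60 ± 0.23. Of 19 SBF targets, 2 met that threshold with higher values, a share near that over all genes. Among them was SRL1, a cell wall mannoprotein, at 0.47 ± 0.16. The largest difference in that list, 0.61 ± 0.30 in the mannosyltransferase gene MNN1, did not meet it.

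**Figure D3:**
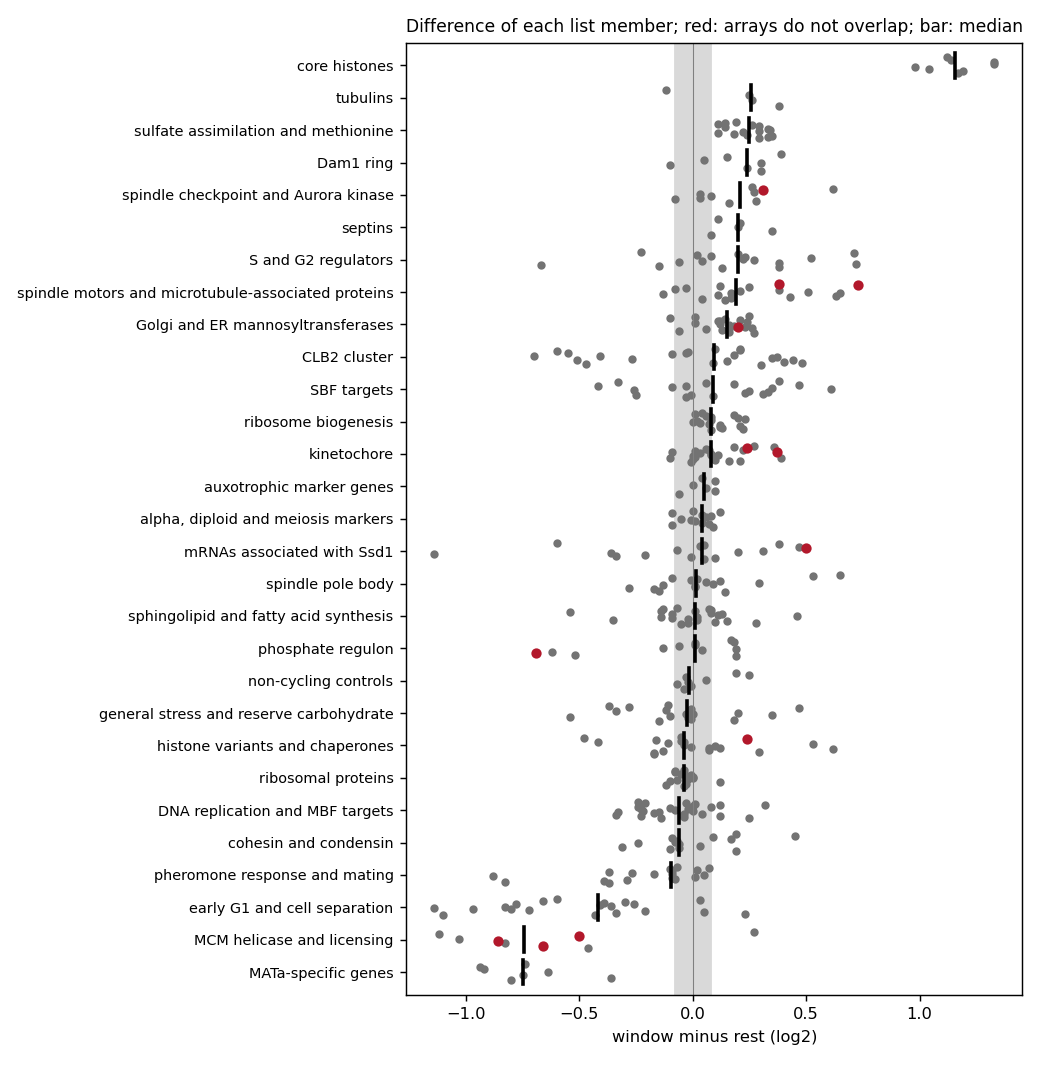
Window minus rest difference on the log2 scale (horizontal axis) for every measured member of the 29 lists (rows), with the list median as a bar, members whose arrays do not overlap in red, and the quartiles of all genes as a grey band. Core histones lie at 0.98 to 1.33, and the MATa-specific and MCM lists have the lowest medians, -0.75 and -0.74.

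The MCM list held 3 clear windows, more than any other of the 29 lists. The Mcm2 to Mcm7 proteins form the replicative helicase that is loaded on origins in G1, and all 6 of their genes were lower in the window in both cycles. Of 8 genes of helicase and licensing, 7 met the unadjusted threshold with lower values (7.91% over all genes) and 1 with higher values. With neighbouring arrays as a block the counts were 6 and 1. The 3 clear windows lay below all other arrays (0.733% of all genes). The list median was -0.74, and was -0.57 in the second cycle and -0.92 in the first.

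MCM2 stood at -0.43, -0.47, -0.14 and -0.45 in the window and at 0.04 to 0.56 with a median of 0.26 on the rest. The groups did not overlap, although the 90 min array stood apart from the other 3, and the difference was -0.66 ± 0.11 (adjusted p = 0.098, limma). MCM4 read -1.25, -0.89, -0.34 and -0.48, against -0.29 to 0.42, a difference of -0.86 ± 0.16 with a clear window. MCM6 read -0.36, -0.29, -0.24 and -0.26, against -0.11 to 0.47, and differed by -0.50 ± 0.10, also with a clear window. MCM7, MCM5 and MCM3 had differences of -1.12 ± 0.26, -1.03 ± 0.23 and -0.83 ± 0.19 but overlapped the rest. In MCM7 the overlapping array was at 20 min, -0.78, near its window values of -1.59, -0.83, -0.76 and -0.66.

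The 2 other licensing genes had opposite signs. CDC6, the loader of the helicase, differed by -0.46 ± 0.21. TAH11, the yeast Cdt1 that brings the helicase to origins, was higher by 0.27 ± 0.09, with window values of 0.66, 0.42, 0.53 and 0.43, against 0.01 to 0.46.

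MATa-specific genes, which are under Mcm1 and are raised by pheromone, were all lower. All 7 were negative in both cycles, with a median of -0.75. The unadjusted threshold was met by 4 with lower values (7.91% over all genes), and by 3 with neighbouring arrays as a block. The median was -0.65 in the second cycle and -1.02 in the first. STE2, the receptor for alpha factor, read -2.09, -1.82, -1.02 and -1.18 in the window and -1.56 to -0.07 with a median of -0.44 on the rest, a difference of -0.94 ± 0.22 (adjusted p = 0.12, limma). The overlap came from the 20 min array, the lowest of the rest. MFA2, which encodes the a-factor pheromone, differed by -0.92 ± 0.23, BAR1, the protease that degrades alpha factor, by -0.75 ± 0.30 and STE6, the a-factor exporter, by -0.74 ± 0.20. These genes were high during arrest (list median 1.85 at 0 min), and how much of the first-cycle difference follows from the arrest was not tested.

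Among 18 genes of pheromone response and mating, 0 were higher and 3 lower at the unadjusted threshold (10.2% and 7.91% over all genes). The median was -0.10, and with neighbouring arrays as a block the lower count was 2. The 3 lower genes were GPA1, the G-protein alpha subunit, at -0.88 ± 0.20, FAR1, the inhibitor of G1 cyclin kinase, at -0.83 ± 0.30 and SST2, the regulator that turns off Gpa1, at -0.37 ± 0.13.

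Of 20 early G1 and cell separation genes, 15 were negative in both cycles, and the median was -0.42. The unadjusted threshold was met by 5 with lower values and 0 with higher (7.91% and 10.2% over all genes). With neighbouring arrays as a block 2 met it, HSP150 and the PIR wall protein gene PIR3. HSP150, a PIR cell wall protein, read -1.88, -1.97, -0.45 and -1.17 in the window, against -1.40 to 0.70 with a median of 0.10, a difference of -1.14 ± 0.38 (adjusted p = 0.17, limma). It had the most negative difference of all genes tested, and its 20, 50 and 110 min arrays overlapped the window. ASH1, the daughter-cell repressor of HO, differed by -1.10 ± 0.41, the CDK inhibitor gene SIC1 by -0.66 ± 0.29 and PST1, a wall protein, by -0.78 ± 0.35. The daughter-specific glucanase gene DSE4 differed by -0.97 ± 0.48 but did not meet the threshold.

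Genes outside the lists, as well as most list members, were named after their values were seen. SED1, an abundant GPI-anchored wall protein, stood at -0.50, -0.70, 0.19 and 0.04 in the window and at 0.24 to 1.05 with a median of 0.70 on the rest. The groups did not overlap, and the difference of -0.93 ± 0.16 (adjusted p = 0.098, limma) was the largest with a clear window. PRY1, a secreted sterol-binding protein, differed by -0.85 ± 0.14 with an adjusted p of 0.098 but overlapped at 1 window array, at 30 min. Other lower genes were TIP1, a wall mannoprotein, at -1.12 ± 0.34, the secreted glycoprotein gene YGP1 at -1.05 ± 0.30 and MSA1, a cofactor of SBF and MBF, at -1.03 ± 0.26. UTR2, a wall crosslinking enzyme, at -0.51 ± 0.13, and RGA1, a GTPase activator of Cdc42, at -0.50 ± 0.12 had clear windows, RGA1 with a lone low array of -0.78 at 30 min.

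Genes with clear windows on the higher side had varied roles. GAS3, of the Gas1 family of wall glucanosyltransferases, read 0.51, 0.57, 0.41 and 0.48, against -0.96 to 0.26 with a median of -0.18, a difference of 0.73 ± 0.21. KAR2, the Hsp70 chaperone of the ER, read 0.69, 0.55, 0.51 and 0.44, against -0.26 to 0.37, a difference of 0.47 ± 0.10. SIM1, a SUN family wall protein, differed by 0.50 ± 0.14, GLO3, an Arf GTPase activator of Golgi to ER transport, by 0.44 ± 0.09 and GPI13, an enzyme of GPI anchor synthesis, by 0.43 ± 0.11. Nuclear genes with clear windows were TOF2 of the rDNA, at 0.58 ± 0.13, MBP1, the DNA-binding subunit of MBF, at 0.37 ± 0.10, and its corepressor NRM1, at 0.38 ± 0.08. AIM34, of unknown function, had the largest difference with a clear window on this side, at 0.85 ± 0.22. YER121W, the only higher gene with an adjusted p under 0.1 (0.098, limma), differed by 0.37 ± 0.06 with a clear window.

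Of 20 genes of the mannosyltransferases that build wall and secreted glycans, 8 met the unadjusted threshold with higher values and 0 with lower (10.2% and 7.91% over all genes), and 12 did not meet it. With neighbouring arrays as a block the higher count was 4. The median was 0.15, and 15 members were positive in both cycles. ANP1 and MNN10, subunits of Golgi mannan polymerase, differed by 0.27 ± 0.09 and 0.26 ± 0.09, VRG4, the GDP-mannose transporter, by 0.25 ± 0.10 and PMT1, a protein O-mannosyltransferase, by 0.24 ± 0.11. MNN11 had a clear window of 0.45 to 0.49 against 0.03 to 0.41 on the rest. In sphingolipid and fatty acid synthesis the median was 0.01, and 4 of 23 met the threshold with higher and 2 with lower values, or 1 and 0 with the block, with LAC1, a ceramide synthase subunit, at 0.46 ± 0.14 and OLE1, the fatty acid desaturase, at -0.54 ± 0.21.

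**Figure D4:**
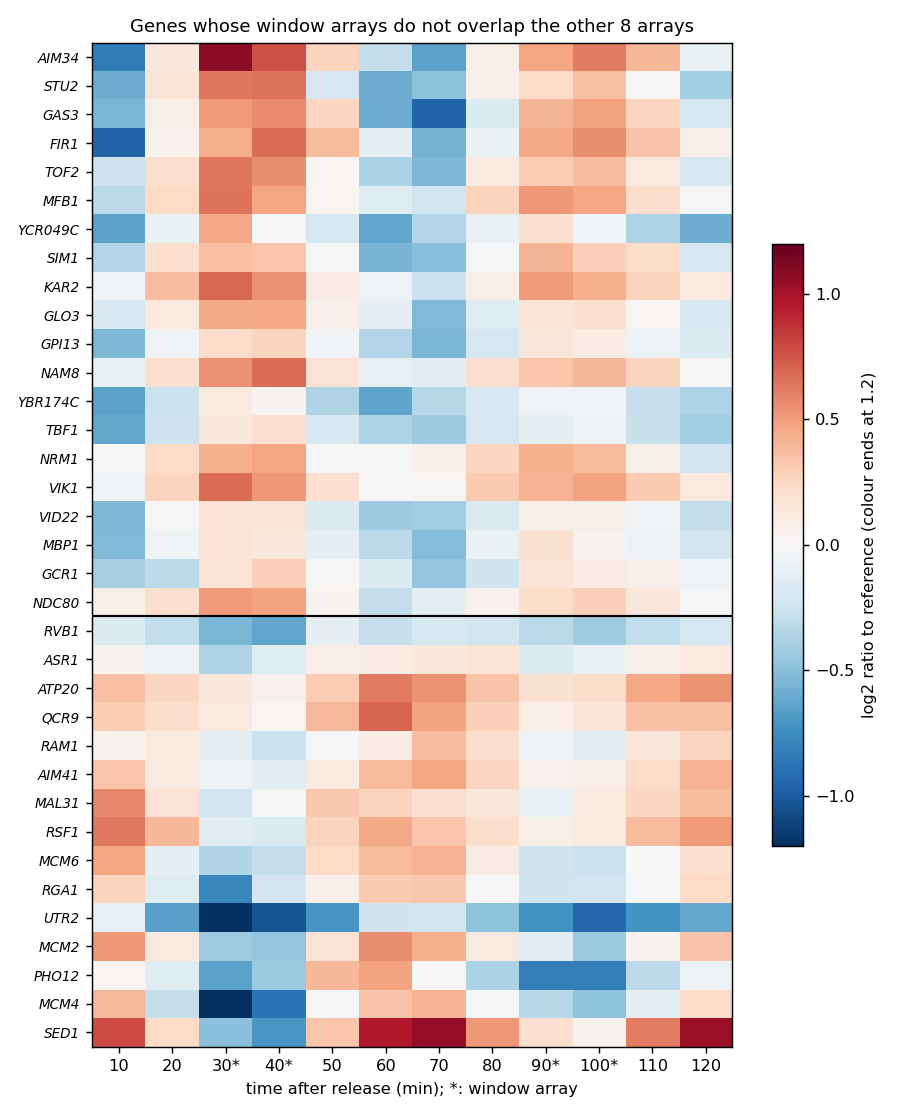
Heat map of log2 ratios to the reference (colour) on the 12 arrays (columns, window times starred) for the 20 genes with the largest positive and the 15 with the largest negative difference among those whose window arrays do not overlap the rest. The starred columns are the highest of each row above the line and the lowest below it, led by AIM34 at 0.85 and SED1 at -0.93.

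The comparison of cycles asked whether the difference was the same in both. With limma's interaction of window and cycle, 0 of 6135 genes (0%) passed an adjusted p under 0.05, and the smallest adjusted p was 0.17. An unadjusted p under 0.05 was found for 315 genes, near the share that such a threshold passes by chance. With neighbouring arrays as a block it was found for 101. Sizes were smaller in the second cycle in most genes with a clear window. Of the 78 higher genes, 63 had the larger difference in the first cycle, with medians of 0.26 in the second and 0.35 in the first. Of the 45 lower genes, 37 did, with medians of -0.19 and -0.25 in the second and the first cycle. The spread over all genes was also smaller on every second-cycle array, 0.24 to 0.278 (SD) against 0.282 to 0.364 on the first-cycle arrays. Smaller sizes are thus not particular to genes with a clear window.

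Sulfate assimilation and methionine genes showed how a difference can come from 1 cycle. All 16 were positive over both cycles together, but only 3 were positive in each, and the list medians were -0.11 in the second cycle and 0.51 in the first. MET14, adenylylsulfate kinase, read 1.30 and 1.18 at 30 and 40 min but 0.41 and 0.54 at 90 and 100 min, against 0.22 to 0.73 on the rest. Its second-cycle difference was -0.13 and its first-cycle difference 0.84, a change of -0.96 ± 0.17. The genes of smallest interaction p were DUG3, of glutathione breakdown, FAT3, of fatty acid uptake, and YFL012W, which has no known role. DUG3 differed by -0.10 in the second cycle and by 0.80 in the first.

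**Figure D5:**
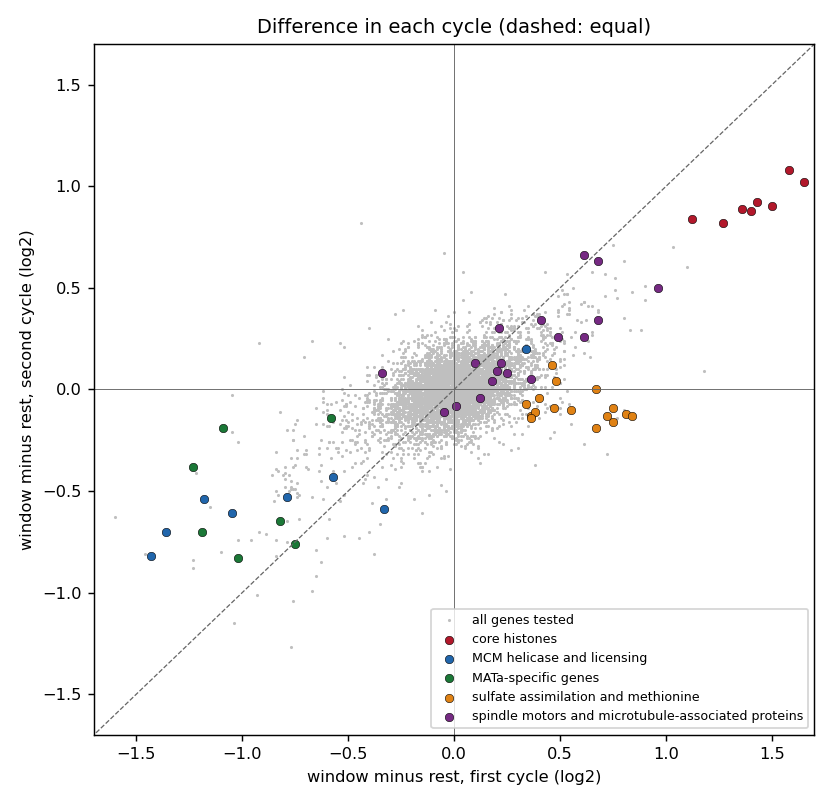
Window minus rest difference in the second cycle (vertical axis) against that in the first cycle (horizontal axis), log2, for all genes tested (grey) and 5 lists in colour, with the dashed line marking equal differences. The core histones (medians 0.89 and 1.41) and MCM genes (-0.57 and -0.92) keep their sign in both cycles, while the sulfate and methionine genes (-0.11 and 0.51) do not.

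The remaining lists had medians of -0.04 to 0.08, within or at the quartiles of all genes. Their counts at the unadjusted threshold are to be read against 10.2% of all genes higher and 7.91% lower. Counts with the block are to be read against 381 higher and 256 lower of 6135 genes. In the phosphate regulon the 3 lower members at the unadjusted threshold were the acid phosphatase genes PHO12, PHO5 and PHO11. They differed by -0.69 ± 0.12, -0.62 ± 0.21 and -0.52 ± 0.13, and as related genes they may share signal in part. PHO12 had a clear window, at -0.64, -0.45, -0.83 and -0.83, against -0.38 to 0.48 (adjusted p = 0.098, limma), and 3 other members of the 12 were higher, or 1 with the block. Ribosome biogenesis had 6 of 18 higher, or 5 with the block, led by the nucleolar NSR1 at 0.23 ± 0.07. No member was lower at that threshold, and the median of 0.08 equals the upper quartile of all genes. The 15 ribosomal protein genes had a median of -0.04, with RPL25 at -0.12 ± 0.05, the 1 that met the threshold, and 0 with the block. Of 18 general stress genes, 3 met the threshold with higher and 4 with lower values, or 2 and 3 with the block. The median was -0.02, and only 4 members had a positive difference. The chaperones SSA4 and HSP104 were higher, by 0.47 ± 0.13 and 0.35 ± 0.11. The glycogen and trehalose synthesis genes GSY1 and TPS2 differed by -0.54 ± 0.19 and -0.37 ± 0.12. The 16 mRNAs known to bind Ssd1 had a median of 0.04, with 2 higher and 2 lower (2 and 1 with the block), and overlap other lists in part. SSD1 itself read -0.46, -0.15, -0.03 and -0.09 in the window, against -0.34 to 0.03, a difference of -0.08 ± 0.08 (adjusted p = 0.62, limma). The 8 measured non-cycling controls had a median of -0.01, and 1 met the unadjusted threshold, also with the block: UBC6, a ubiquitin-conjugating enzyme, at 0.19 ± 0.06. TFC1, a subunit of TFIIIC, had the largest difference, 0.25 ± 0.13, and did not meet it. The 6 auxotrophic marker genes had a median of 0.05, with TRP1 of tryptophan synthesis at 0.10 ± 0.06. The largest difference among alpha, diploid and meiosis markers was 0.12 ± 0.07, in the a-factor receptor gene STE3.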

How the data were processed

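The labels' protocols describe total RNA, amino-allyl dye coupling and 2 channels per array: the time point in Cy5 and an asynchronous W303a culture in Cy3. The table the authors deposited holds a log ratio for each open reading frame, read here as log2 of Cy5 over Cy3 and centred near 0 by the authors (array medians -0.01 to 0 in the window and -0.03 to 0.01 on the rest). No source used here gives the log base, scanner, background correction, normalization or probes, so signal over background is unknown. Cy5 in the numerator is likely: the labels give the dyes, and FIG1, a gene induced by pheromone, stood at 4.53 at 0 min. Between arrays 30 min apart the mean correlation of gene-centred values was -0.499. Phases of the cycle can oppose, and the direction was kept. Turning the sign on all arrays would leave that correlation unchanged, so it cannot bear on which dye is in the numerator. The opposite direction would turn every sign, and natural logarithms would make each size larger.

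Values were used as deposited. Of 6295 rows, 108 were empty and 20 had no readable gene name and were left out. RefSeq gene names matched 5768 rows by locus and 49 by synonym, and 458 kept their own names. Rows of 27 genes were averaged. Genes on at least 10 of the 12 arrays, 6135 of 6140, were fitted with limma 3.58.1 (R 4.3.3) with window and cycle terms, eBayes and Benjamini-Hochberg adjustment over all genes, and again with their interaction. The scripts were tested on simulated data. Figures used matplotlib 3.10.9 in Python 3.11.15.

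Arrays were assigned to the window by label, but the window times, members and lists were chosen with earlier results of these data known. The naming rule took 3 called members per list, or the 1 of largest difference where none was called, 8 called genes per direction outside the lists, the 3 of smallest interaction p, and SSD1. As none was called it gave 32 genes, and 122 were added after their values were seen. The 2 weaker descriptors were also added then. Alternatives were other time terms, neighbouring arrays as a block, 2 other scalings, stricter filters, 0 min counted with the rest, robust eBayes, each array left out and, added after seeing the data, 3 levels.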

Additional observations from a re-analysis of the deposited data

Results flagged for a closer look

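Over 154 named genes, the window and the rest of each were searched for 1 array far from the others, 308 groups in all. The critical value used is one that about 1 in 20 groups pass by chance, and 5 groups were found. MCM2 stood at -0.14 at 90 min, where the next window array was at -0.43. RGA1 stood at -0.78 at 30 min, where the next window array was at -0.24. CDC42, a GTPase of cell polarity, stood at 0.23 at 30 min, where the next window array was at 0.09. On the rest, SPC34 stood at 0.47 at 20 min, where the next array was at 0.07, and HIR1 stood at 0.29 at 20 min, where the next array was at 0.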

How the results depend on the processing

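No gene passed the adjusted test, in the window comparison or in its interaction with the cycle, under any alternative run; the smallest adjusted p of the window comparison lay between 0.054 without the 20 min array and 0.45 with neighbouring arrays as a block (estimated correlation 0.33). With that block, 381 genes were higher and 256 lower at an unadjusted p under 0.05 with the same sign in both cycles. Without the block, and with an absolute difference of at least 0.5 also asked for, 38 were higher and 69 lower. Leaving out each array in turn gave 444 to 711 higher and 335 to 573 lower. Windows clear of the rest numbered 80 to 153 higher and 46 to 109 lower with 1 array left out; fewer arrays make this easier by construction. The arrays that moved a count by over 1.5 times were those at 20 min (148 higher and 93 lower without it), 30 min (87 lower), 40 min (70 lower), 50 min (124 and 74), 90 min (153 and 109) and 100 min (136 and 77). With 0 min counted with the rest they numbered 73 and 35. Of 3849 values of the 154 named genes, 22 in 9 genes had the sign turned. In the second cycle alone DUG3 stood at -0.10, MET14 at -0.13, FAT3 at 0.25, YFL012W at 0.30 and SSD1 at 0.01. POL30 stood at 0.01 with 0 min among the rest, and at 0.05, 0.13, 0.15 and 0.04 without 10, 20, 40 or 80 min. RNR1 stood at 0 without 10 min and at 0.05 without 20 or 40 min, FAT3 at 0.06 and 0.02 and YFL012W at 0.07 and 0.01 without 30 or 40 min. NUF2 stood at -0.02 without 40 min, and HCM1 at -0.03, 0, 0 and -0.02 without 50, 60, 90 or 110 min. No paired analysis was possible because each time point is 1 array and the labels give no replicate numbers. Depth has no counterpart in these log ratios, and the signal behind a spot is unknown.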
